A study of Oryza sativa Japonica Group with 6 samples.

Results

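The loci described here lie on chromosome 7 of rice, from LOC_Os07g12350 to LOC_Os07g13000, and include a stretch whose genes had clearly lower transcript levels in plants overexpressing a lipid transfer protein. They were chosen by identifier. All loci of the deposited files between these identifiers were taken, 62 of 55986 in all, and divided into an inner stretch of 26 loci, LOC_Os07g12390 to LOC_Os07g12640, and a flank of 36 loci, 4 before it and 32 after it. The ends of the inner stretch were set on the difference between the genotypes in these same 6 libraries. That difference is therefore given below as a description, with no p value printed for any of the 62 loci. Their calls come from a comparison over all loci with a threshold on the adjusted p, and are not a test of the stretch.

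RNA was sequenced from rice seedlings whose buds were about 5 mm long, a stage at which the shoot and root have just left the grain, after 3 h at 2 °C. The control group (ZH17) was the japonica variety Zhonghua17 without a transgene. The overexpression plants (OEZ) were Zhonghua17 transformed with the OsLTPL159 coding sequence of IL112, a cold-tolerant introgression line, under the CaMV 35S promoter, which is active in most plant tissues. Each genotype had 3 biological replicates of 50 pooled plants, all cold-treated, and how many independent transformants entered the OEZ pools is not given in the sources used here.

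Neighbouring genes in plant genomes are mostly transcribed as separate units, each from a promoter of its own, and adjacent genes often differ widely in level and function. The loci of this region with a description encode, among others, an AP2 domain transcription factor, F-box proteins, a KH domain protein and a glycerol-3-phosphate dehydrogenase. Descriptions were available for 13 loci of the inner stretch and 1 of the flank, taken from the list of differentially expressed genes that the study drew from the same libraries. Loci without one are named by identifier only. The position of a locus within the chromosome was read from the order of the identifiers, since the files give no coordinates.

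The values are FPKM, fragments scaled to the exon length of the gene and to the mapped fragments of the library. This scaling does not by itself make samples comparable, since a value also depends on what else the library contains. The library sums were 856329 FPKM at the lowest and 902931 FPKM at the highest. FPKM gives no read counts, and sequencing depth is unknown. From the smallest values in the files, the depth relative to ZH17 replicate 1 was estimated at 1.07 and 1.16 in ZH17 replicates 2 and 3, and at 1.28, 1.02 and 1.32 in OEZ replicates 1, 2 and 3. OsLTPL159 (LOC_Os10g36160) had 131 to 141 FPKM in the ZH17 samples and 2502 to 2540 FPKM in the OEZ samples, in the direction the labels give. The tissue markers were taken from the same list of differentially expressed genes, so they are not whole families, and their differences between the genotypes were partly fixed by that choice. All 11 chlorophyll A-B binding protein genes on it were above 0, with summed levels of 10130 to 10770 FPKM in ZH17 and 5748 to 6783 FPKM in OEZ. By the rule for calls given below, 10 of them were called lower and 1 higher in OEZ. Over all tested loci, 1.42% were called lower and 1.56% higher. The gene called higher, LOC_Os09g26810, lies in a stretch of chromosome 9 raised in OEZ, described below. The 4 alpha-amylase genes on the list, which break down starch in the germinating grain, summed to between 68.9 and 180 FPKM in ZH17, and in replicates 1, 2 and 3 of OEZ to 1.89, 167 and 2.05 FPKM, so that OEZ replicate 2 stood apart from the other OEZ samples. The 4 grain storage protein genes on it followed the same pattern in OEZ, with 0.466, 64.6 and 0.223 FPKM, against 1.38 to 17.2 FPKM in ZH17. In pooled tissue, fewer cells of a type and less RNA per cell cannot be told apart.

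Of the 62 loci, 46.8% were listed at 0 in all 6 samples, close to the 45.3% of all loci in the files. In the inner stretch 10 of 26 loci were listed at 0, and in the flank 19 of 36, among them all 4 loci before the stretch. A further 1 and 3 loci were above 0 but did not reach the mean of 0.5 FPKM over the 6 samples that was required for the comparison. The 29 remaining loci, 15 of the inner stretch and 14 of the flank, all lie at or after LOC_Os07g12390. The mean level of the 15 inner loci ran from 0.615 to 53.2 FPKM with a median of 4.799 FPKM, and that of the 14 flanking loci from 0.909 to 62.7 FPKM with a median of 6.05 FPKM.

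OEZ and ZH17 were compared with limma on log2(FPKM + 0.1) over the 22841 loci that met this requirement. A locus was called when the fold change was at least 1.5 and the Benjamini-Hochberg adjusted p was under 0.05. On the log2(FPKM + 0.1) scale, the pseudocount draws the fold change of loci with low FPKM towards none. Where single samples are at or near 0, the fold change can also differ from the ratio of the means in size or sign. Of the 15 tested inner loci 14 had a negative log2 fold change, as had 46.7% of all tested loci, and 12 were called lower in OEZ, where 1.42% of all tested loci were called lower and 1.56% higher. In 14 of the 15 every OEZ sample lay below every ZH17 sample, which was so for 13.2% of all tested loci. The median log2 fold change was -0.99, a fold change of 0.505, with an interquartile range of -1.18 to -0.91, beside a median of 0.02 over all tested loci. In the flank, 1 of 14 loci was called lower, and the median log2 fold change was 0.15 with an interquartile range of 0.05 to 0.23. Along the identifiers, the lower level begins with the first expressed locus of the stretch and ends between LOC_Os07g12640 and LOC_Os07g12650. These bounds were set on this same contrast.

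**Figure D1:**
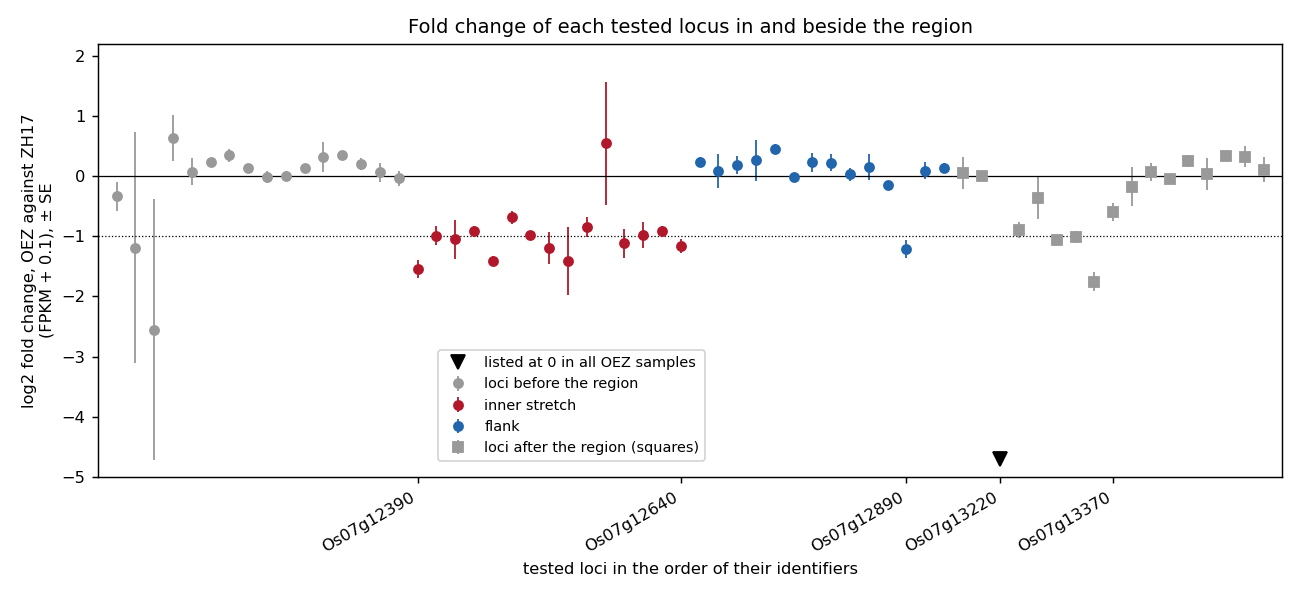
Log2 fold change of OEZ against ZH17 on FPKM + 0.1 (y axis, points with standard errors) of each tested locus in the order of identifiers (x axis), for the 16 tested loci before the region, the 15 of the inner stretch, the 14 of the flank and the 17 after the region, with dotted line at a halving. The inner loci lie around the dotted line except LOC_Os07g12570, and the flank lies near 0 except LOC_Os07g12890. The black triangle marks LOC_Os07g13220, which was listed at 0 in all OEZ samples. Its log2 fold change of -8.77 lies below the axis, and its size depends on the pseudocount.

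The most highly expressed locus of the stretch is LOC_Os07g12510, an AP2 domain protein. The AP2 domain is a plant DNA-binding domain, found in transcription factors of hormone, cold and drought responses. In the order of replicates 1, 2 and 3, kept for every locus from here on, LOC_Os07g12510 had 85.8, 71.1 and 75.2 FPKM in ZH17 and 30.1, 30.02 and 26.9 FPKM in OEZ. The samples of the genotypes were far apart, and the OEZ mean of 29.0 ± 1.83 FPKM (SD, n = 3 pools) was 0.375 of the ZH17 mean of 77.4 ± 7.61 FPKM, one of the lowest ratios in the stretch (log2 fold change -1.41, standard error 0.09). LOC_Os07g12630, described as a transcription elongation factor, a class of proteins that assist RNA polymerase along the gene, had 27.3, 26.6 and 31.2 FPKM in ZH17 and 14.9, 16.0 and 14.0 FPKM in OEZ. Its ratio of 0.527 was close to a halving. LOC_Os07g12490 encodes a KH domain protein, the KH domain being an RNA-binding fold. It had 18.3, 16.5 and 16.1 FPKM in ZH17 and 9.07, 9.51 and 8.38 FPKM in OEZ, a ratio of 0.529 with no overlap. LOC_Os07g12520, described as a zinc ion binding protein, had 6.31, 5.75 and 5.73 FPKM in ZH17 and 3.30, 3.72 and 3.97 FPKM in OEZ. The groups did not overlap, but with a ratio of 0.618 this locus was the least lowered of the 14 (log2 fold change -0.68, standard error 0.11).

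LOC_Os07g12640, the last locus of the stretch, is described as a glycerol-3-phosphate dehydrogenase, an enzyme that interconverts dihydroxyacetone phosphate and glycerol-3-phosphate, a precursor of membrane lipids. It had 9.60, 8.90 and 9.24 FPKM in ZH17 and 3.97, 4.73 and 3.59 FPKM in OEZ. The lowest ZH17 sample was well above the highest OEZ sample, and the ratio of the means was 0.443. LOC_Os07g12530 encodes a protein of the ABC1 family, atypical kinases that in plants are found in chloroplasts and mitochondria. It had 28.4, 29.6 and 30.6 FPKM in ZH17 and 15.1, 15.3 and 14.2 FPKM in OEZ. The replicates of this locus were the closest of the stretch, and its ratio of 0.504 (log2 fold change -0.98, standard error 0.06) lay almost exactly at a halving. LOC_Os07g12480, described as a receptor protein kinase, a class that carries signals across the plasma membrane, was expressed at a low level, with 0.857, 0.861 and 0.851 FPKM in ZH17 and 0.514, 0.258 and 0.350 FPKM in OEZ. Its samples did not overlap either, but it was not called (log2 fold change -1.05, standard error 0.33).

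F-box proteins are the subunits of SCF ubiquitin ligases that select the proteins to be degraded, and plant genomes hold large families of them, often in clusters. The stretch has 3 described F-box genes within a few identifiers of each other. OsFBX224 (LOC_Os07g12560) had 4.03, 3.16 and 3.16 FPKM in ZH17 and 2.11, 1.93 and 1.604 FPKM in OEZ. OsFBX226 (LOC_Os07g12600) had 2.22, 2.71 and 2.88 FPKM in ZH17 and 1.501, 1.20 and 0.816 FPKM in OEZ. OsFBX227 (LOC_Os07g12610) had 1.24, 1.28 and 1.38 FPKM in ZH17 and 0.612, 0.577 and 0.645 FPKM in OEZ. All 3 were low in level, all 3 were separated between the genotypes, and their ratios of means were 0.546, 0.450 and 0.470. How much their sequences resemble each other, and so whether reads could be shared among them, was not analysed here. Elsewhere in the genome, 16 F-box genes were on the list of differentially expressed genes, which was chosen on these samples. Of the 15 that were tested, 5 were called lower and 1 higher in OEZ, and 9 had a negative log2 fold change. For the other 13 AP2 domain genes on that list, limma called 0 lower and 4 higher, with 5 lower and 5 higher at an unadjusted p under 0.05. Of those called higher, LOC_Os09g25600 and LOC_Os09g26420 (log2 fold changes 0.65 and 0.85) lie in a stretch of chromosome 9 raised in OEZ, described below. For the other 3 receptor protein kinase genes on that list, all with a negative log2 fold change, limma called 0, with 1 lower at an unadjusted p under 0.05. Over all 22841 tested loci, limma gave 2522 lower and 2776 higher at that unadjusted limit.

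**Figure D2:**
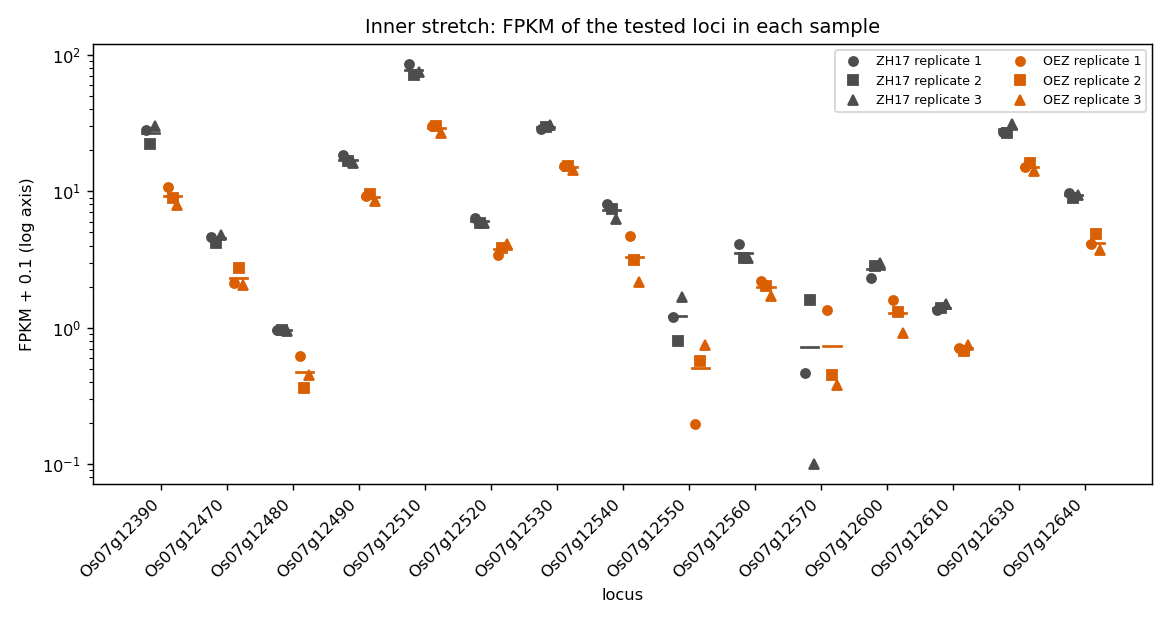
FPKM + 0.1 on a log axis (y) of each of the 15 tested loci of the inner stretch (x) in the 3 ZH17 samples (grey) and the 3 OEZ samples (orange), with symbols for the replicates and bars for the means. The orange points lie below the grey ones at every locus except LOC_Os07g12570, from LOC_Os07g12480 under 1 FPKM to LOC_Os07g12510 with 71.1 to 85.8 FPKM in ZH17.

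The loci described only as expressed proteins followed the same course. LOC_Os07g12390, the first expressed locus of the stretch, had 28.2, 22.1 and 30.2 FPKM in ZH17 and 10.7, 8.88 and 7.85 FPKM in OEZ. The ratio of its means, 0.341, was the lowest of the 15 (log2 fold change -1.54, standard error 0.15). LOC_Os07g12470 had 4.56, 4.04 and 4.68 FPKM in ZH17 and 2.03, 2.63 and 1.94 FPKM in OEZ, a ratio of 0.497. LOC_Os07g12540 had 7.94, 7.36 and 6.21 FPKM in ZH17 and 4.59, 3.01 and 2.07 FPKM in OEZ. The OEZ samples of LOC_Os07g12540 differed from each other by more than those of most other loci, yet the highest of them was below the lowest ZH17 sample.

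The inner loci without a description all had a mean under 1 FPKM over the 6 samples. LOC_Os07g12550 had 1.09, 0.693 and 1.57 FPKM in ZH17 and 0.0966, 0.471 and 0.644 FPKM in OEZ, with a narrow gap between the genotypes and no call. LOC_Os07g12570 was the one tested locus of the stretch whose samples overlapped. It had 0.364 and 1.49 FPKM in ZH17 replicates 1 and 2, was listed at 0 in ZH17 replicate 3, and had 1.25, 0.351 and 0.281 FPKM in OEZ. Its means of 0.618 and 0.628 FPKM were nearly equal, and the sign of its log2 fold change, 0.55 with a standard error of 1.02, turned negative when ZH17 replicate 3 or OEZ replicate 1 was left out. LOC_Os07g12590, with a mean below 0.5 FPKM, was not tested. It had 0.598, 0.506 and 0.436 FPKM in ZH17 and 0.232, 0.292 and 0.432 FPKM in OEZ, so that the nearest samples of the genotypes almost touched.

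The size of the difference varied from locus to locus. The ratio of mean FPKM lay between 0.4 and 0.6 in 10 of the 15 loci, against 2.7% of all tested loci. Below 0.4 were LOC_Os07g12390, LOC_Os07g12510 and LOC_Os07g12550, and above 0.6 were LOC_Os07g12520 and LOC_Os07g12570. Among the 7 loci whose mean reached 5 FPKM, the log2 fold changes ran from -1.54 to -0.91. The standard errors of LOC_Os07g12390, LOC_Os07g12510 and LOC_Os07g12530, from 0.06 to 0.15, are small beside the gap between the first pair and the third, but this spread among loci was described from the contrast that chose them and was not tested. Level and fold change went together only weakly, with Spearman's rho of -0.25 across the 15 loci, which share the same 6 libraries and are not independent replicates. The median log2 fold change was -1.16 in the 7 loci of at least 5 FPKM and -0.98 in the 8 loci below it.

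**Figure D3:**
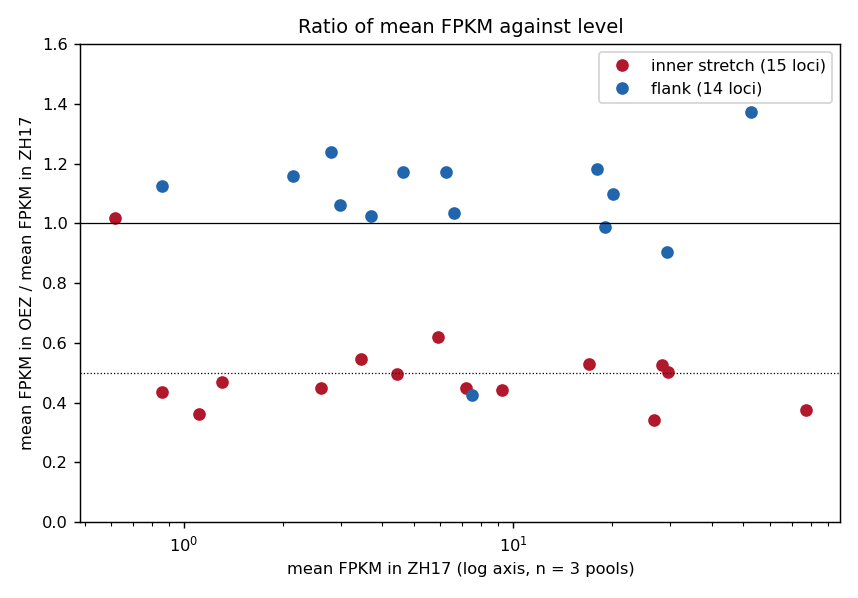
Ratio of the mean FPKM in OEZ to that in ZH17 (y axis) against the mean FPKM in ZH17 (x axis, log scale) for the 15 tested inner loci (red) and the 14 tested flanking loci (blue), each mean over 3 pools. The inner loci lie near the dotted line at 0.5 over the whole range of levels, with LOC_Os07g12570 at 1.02, and the flanking loci lie near or above 1, with LOC_Os07g12890 at 0.424.

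The difference was present in each OEZ sample. The loci were chosen on this contrast in the same libraries, so this was partly fixed by the choice. Summed over the 15 inner loci, the level was 226, 202 and 219 FPKM in the ZH17 samples and 99.9, 98.6 and 87.2 FPKM in the OEZ samples. The median deviation of the 15 loci from their ZH17 mean, on the log2(FPKM + 0.1) scale, was 0.05, -0.04 and 0.00 in the ZH17 samples and -0.92, -0.95 and -1.05 in the OEZ samples. OEZ replicate 2, the OEZ sample with the highest alpha-amylase and grain storage sums, was placed between the other OEZ samples. Its relative depth was close to that of ZH17. Whether grain tissue or depth bears on the level of the stretch was not tested. The OEZ samples averaged -0.97 ± 0.07 and the ZH17 samples 0.00 ± 0.05 (SD, n = 3 pools). In the flank the same measure was -0.10, 0.01 and 0.06 in ZH17 and 0.17, 0.14 and 0.03 in OEZ, where the ranges of the genotypes overlapped.

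**Figure D4:**
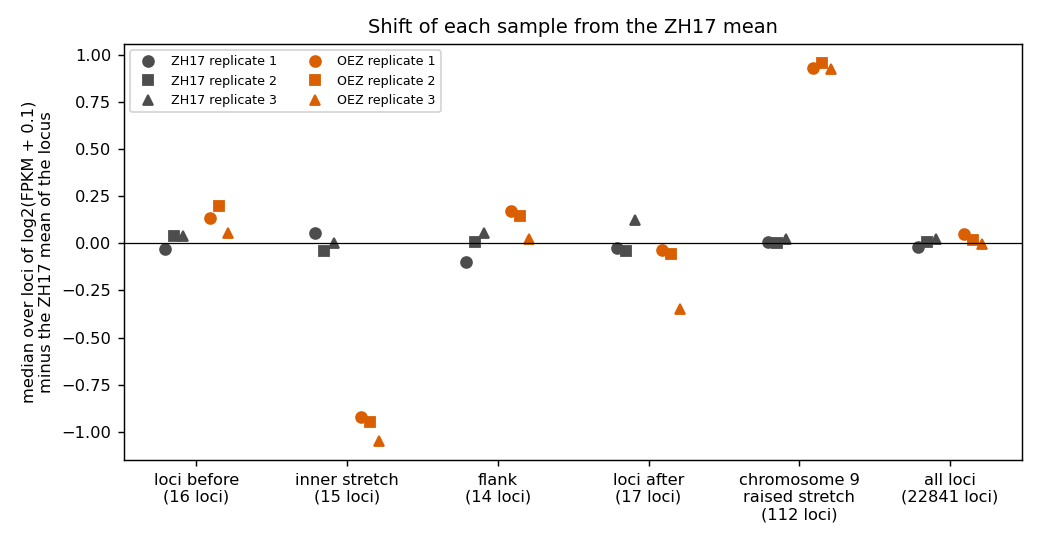
Median over loci of log2(FPKM + 0.1) minus the ZH17 mean of each locus (y axis) in each of the 6 samples, for the loci before the region, the inner stretch, the flank, the loci after the region, the raised stretch of chromosome 9 and all tested loci (x axis). In the inner stretch the OEZ samples sit at -0.92, -0.95 and -1.05, in the raised stretch of chromosome 9 at 0.93, 0.96 and 0.92, and elsewhere within 0.35 of the ZH17 mean.

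Beyond LOC_Os07g12640 the level changed back within 1 identifier, at a bound that had been set on this same contrast. LOC_Os07g12650, the first locus outside the stretch, had 18.8, 16.4 and 18.7 FPKM in ZH17 and 21.2, 21.8 and 20.8 FPKM in OEZ. Here every OEZ sample was above every ZH17 sample, with a ratio of 1.18, and the locus was not called (log2 fold change 0.24, standard error 0.07). On the other side, the 4 flanking loci before the stretch were listed at 0, and the nearest tested locus was LOC_Os07g12340, outside the region. It had 73.2, 53.8 and 69.6 FPKM in ZH17 and 58.5, 66.0 and 65.9 FPKM in OEZ, and its samples overlapped. The values just inside the bounds, LOC_Os07g12390 with a ratio of 0.341 and LOC_Os07g12640 with 0.443, therefore stood beside a locus with a ratio of 1.18 on one side and loci listed at 0 on the other.

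Of the 14 tested flanking loci, 11 had a positive log2 fold change, as had 12179 of all 22841 tested loci. In 3 of the 14 every OEZ sample was above every ZH17 sample, where 16.0% of all tested loci were so. In 2 every OEZ sample was below, where 13.2% of all tested loci were so. LOC_Os07g12730 was the most highly expressed locus of the flank and the one with the largest positive value. It had 57.3, 49.8 and 51.4 FPKM in ZH17 and 66.8, 80.2 and 70.6 FPKM in OEZ, a ratio of 1.37, which is under the fold change of 1.5 required for a call. LOC_Os07g12810 also had its OEZ samples higher, by a small margin at a low level, with 0.911, 0.752 and 0.905 FPKM in ZH17 and 0.929, 1.03 and 0.931 FPKM in OEZ. LOC_Os07g12830, the second most highly expressed, had 27.2, 29.7 and 30.8 FPKM in ZH17 and 26.2, 26.7 and 26.5 FPKM in OEZ. The OEZ samples of LOC_Os07g12830 were lower without overlap, but only to 0.905 of the ZH17 mean. In the other 9 flanking loci the samples of the genotypes overlapped, and their log2 fold changes lay between LOC_Os07g12770 at -0.02 and LOC_Os07g12720 at 0.27. LOC_Os07g12770 was the steadiest of them, with 18.7 to 19.3 FPKM in ZH17 and 18.6 to 18.9 FPKM in OEZ.

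One locus of the flank behaved like the stretch. LOC_Os07g12890 is described as a metal cation transporter, a membrane protein that moves metal ions. It had 6.999, 8.66 and 6.89 FPKM in ZH17 and 3.69, 3.17 and 2.71 FPKM in OEZ. The groups were separated, the ratio of the means was 0.424, and this was the flanking locus that was called lower (log2 fold change -1.21, standard error 0.15). The nearest tested loci on either side of it were LOC_Os07g12830, with a ratio of 0.905, and LOC_Os07g12900, with 1.06. The other 2 metal cation transporter genes on the list of differentially expressed genes, both outside the region, had a positive log2 fold change, and 1 was called higher.

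**Figure D5:**
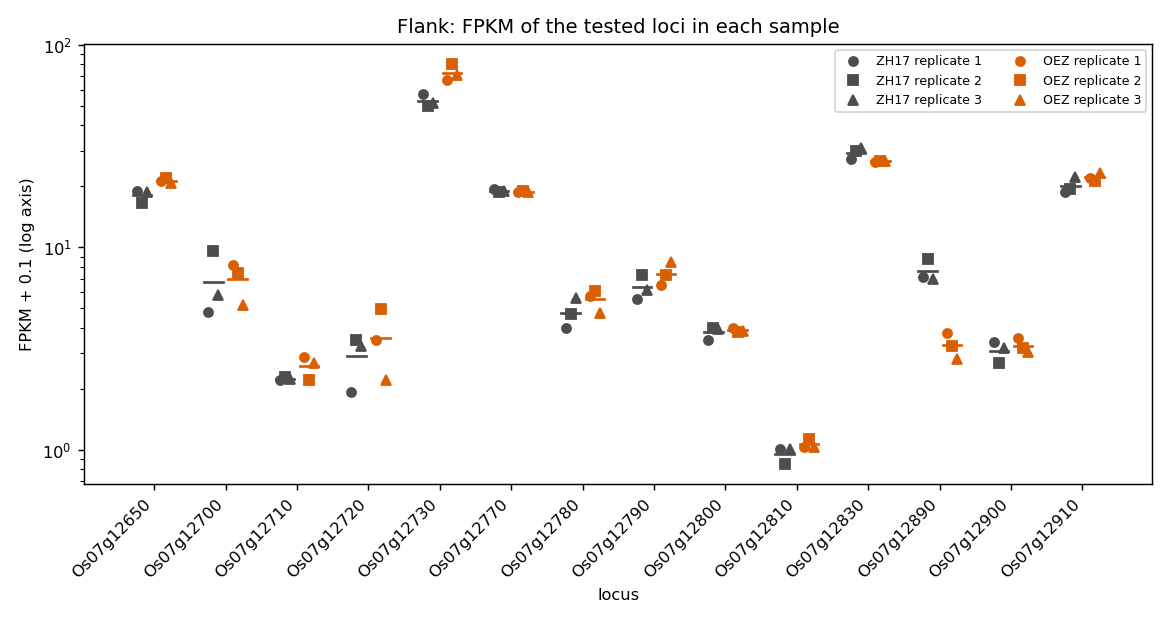
FPKM + 0.1 on a log axis (y) of each of the 14 tested loci of the flank (x) in the 3 ZH17 samples (grey) and the 3 OEZ samples (orange), with symbols for the replicates and bars for the means. The genotypes lie close together or overlap at all loci but LOC_Os07g12890, with 6.89 to 8.66 FPKM in ZH17 and 2.71 to 3.69 FPKM in OEZ, and LOC_Os07g12730, where OEZ is higher by a ratio of 1.37.

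The loci around the region were taken as windows of the same span of identifiers. Of the 59 loci from LOC_Os07g11700 to LOC_Os07g12340, 16 were tested. Their median log2 fold change was 0.10, and limma called 0 of them, with 0 lower and 3 higher at an unadjusted p under 0.05. Over all 22841 tested loci, 2522 were lower and 2776 higher at that limit. The 2 most negative values in that window were at the prolamin precursor gene LOC_Os07g11910 and at LOC_Os07g11920, with large standard errors of 1.92 and 2.17. Both loci were listed at 0 in OEZ replicates 1 and 3 and were high in OEZ replicate 2. The grain genes were also highest there among the OEZ samples, but LOC_Os07g11910 is itself among the grain storage genes summed above. The ratios of their mean FPKM, OEZ to ZH17, were 2.45 and 1.17, so the negative sign holds on the log scale only. Of the 57 loci from LOC_Os07g13010 to LOC_Os07g13650, 17 were tested, with a median log2 fold change of -0.04. In this window 5 loci were called lower, against 1.42% of all tested loci.

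Beside the raised stretch of chromosome 9, LOC_Os09g24720 to LOC_Os09g27040, where 112 loci were tested, the stretch on chromosome 7 was shorter and opposite in sign. The median log2 fold changes were -0.99 and 0.93, fold changes of 0.505 and 1.91, and the interquartile ranges were 0.26 and 0.35 wide. Both were chosen on the same contrast and share all 6 samples, and no difference between them was tested. The number of called loci depended on the samples: of the 12 inner loci called with all samples, between 6 and 9 were called when 1 sample was left out, while the median log2 fold change stayed between -1.04 and -0.92. LOC_Os07g12390, LOC_Os07g12490, LOC_Os07g12510, LOC_Os07g12530, LOC_Os07g12630 and LOC_Os07g12640 were called in all 6 of these fits. LOC_Os07g12470 was called in 3 of them, and LOC_Os07g12520, LOC_Os07g12540 and OsFBX224 (LOC_Os07g12560) in 1 each. OsFBX226 (LOC_Os07g12600) and OsFBX227 (LOC_Os07g12610) were called in 0.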

How the data were processed

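Paired-end RNA-seq libraries of 3 ZH17 and 3 OEZ pools were compared, grouped by the sample titles. According to the methods, the authors used TopHat2 with its default settings to map reads to the Nipponbare genome (IRGSP-1.0, MSU7 loci), and the deposited FPKM values are those of Cuffdiff, 1 value for each locus in each library, unfiltered. Tool versions and the scaling between libraries are not given in the sources used here. Without information on strand, overlapping loci on opposite strands cannot be told apart. No pair of files was identical.

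Log2(FPKM + 0.1) was fitted with limma 3.58.1 (R 4.3.3, variance trend) for the 22841 loci whose mean over the 6 samples reached 0.5 FPKM, with Benjamini-Hochberg adjustment over all of them and thresholds of 1.5-fold and 0.05. The Cuffdiff test needs reads and was not repeated. Relative depth was read from loci under 0.15 FPKM in both samples, as the commonest ratio of their values. Medians, ranges and plots were made in Python 3.11.15 with numpy 2.4.6, pandas 2.3.3, scipy 1.17.1 and matplotlib 3.10.9. The limma step was tested on simulated data. Named were all tested inner loci, and flanking loci that were called, adjacent to the stretch, separated between genotypes or among the 2 most highly expressed. In the windows, called loci and LOC_Os07g12340, the nearest tested locus, were named. LOC_Os07g12590 is given although it was not tested. Added after their values were seen were LOC_Os07g12770 and LOC_Os07g12720, the ends of a range, LOC_Os07g12900, LOC_Os07g11910 and LOC_Os07g11920. LOC_Os07g13160, LOC_Os07g13170, LOC_Os07g13260, LOC_Os07g13370 and the named genes of chromosome 9 were likewise outside the rule and added later. The members and lists were chosen with earlier results of these data known. Alternatives were pseudocounts of 1 and 0.01, other filters, other scalings, no variance trend, other fold thresholds, the replicate number as a block, each sample left out, and the stretch without its end loci. Sequences and coordinates of the loci were not used here, since the gene table at hand holds no identifiers of this annotation.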

Additional observations from a re-analysis of the deposited data

How the results depend on the processing

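The median log2 fold change of the inner stretch was -0.77 with a pseudocount of 1, -1.08 with 0.01, -1.16 with a filter at a mean of 5 FPKM, and -1.04 to -0.92 with 1 sample left out. Of the 12 inner loci called lower, 7 passed with the filter at 5 FPKM, which leaves 7 inner loci to test, and 5 at a fold change of at least 2. Leaving out ZH17 replicates 1, 2 and 3 left 7, 6 and 9, and leaving out OEZ replicates 1, 2 and 3 left 7, 7 and 6. The replicate numbers are shared by both genotypes, but the deviations of same-numbered samples correlated at 0.02, 0.03 and -0.06, so the numbers were not taken as pairs. With the replicate number as a block, 6 inner loci and 120 loci in all were called lower, in place of 12 and 324. The count over all loci was 115 at a fold change of at least 2, 718 without a criterion on fold change, and 107 to 508 when a sample was left out. The flank had 1 locus called lower in each of these settings, and its median stayed between 0.10 and 0.19. Median-ratio scaling and quantile normalization changed neither count of the region. For single loci, 380 of 391 values under the alternatives moved by less than the spread between replicates and 0 called values changed sign. The other filters, the fit without the variance trend and the replicate block cannot change the fold change of a single locus. Many of the 380 were therefore fixed in advance, and the count says little about robustness. Loci under 1 FPKM, 4 of the 15 inner ones, limit what could be called.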

Other observations

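Beyond the region, loci lower in OEZ occurred again from LOC_Os07g13220 to LOC_Os07g13370, by widely differing amounts. These bounds were chosen after the values had been seen, and no test was made of them. LOC_Os07g13270, an SNF7 domain protein, a family that shapes membranes in the sorting of cargo to the vacuole, had 201, 201 and 210 FPKM in ZH17 and 96.8, 97.4 and 99.3 FPKM in OEZ, in the order of replicates 1, 2 and 3. The replicates were close, and the ratio of the means was 0.479. LOC_Os07g13280, with an RNA recognition motif, had 27.7, 24.6 and 29.98 FPKM in ZH17 and 13.6, 14.4 and 12.6 FPKM in OEZ. LOC_Os07g13234, described as an expressed protein, had 20.3, 22.3 and 24.8 FPKM in ZH17 and 11.5, 14.2 and 10.5 FPKM in OEZ. Both were lower in every OEZ sample, with ratios of 0.494 and 0.538.

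The other loci of this second group differed more among themselves. LOC_Os07g13360, an expressed protein, had 17.9, 13.2 and 17.5 FPKM in ZH17 and 4.69, 5.47 and 3.996 FPKM in OEZ, a ratio of 0.292. LOC_Os07g13370 had 10.4, 12.3 and 12.9 FPKM in ZH17 and 8.60, 8.75 and 6.22 FPKM in OEZ, a ratio of 0.662 without a call. LOC_Os07g13220 had 44.8, 46.0 and 40.3 FPKM in ZH17 and was listed at 0 in all OEZ samples. LOC_Os07g13260, which lies between them, had overlapping samples at a low level, 0.798 to 1.61 FPKM in ZH17 and 0.574 to 1.15 FPKM in OEZ. Between this group and the inner stretch lie the 14 tested loci of the flank, of which LOC_Os07g12890 was lowered, and LOC_Os07g13160 and LOC_Os07g13170, with log2 fold changes of 0.05 and 0.01.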
